A study of Mus musculus with 17 samples.

Results

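The Cyp2c genes encode a subfamily of cytochrome P450 enzymes, and 10 of them were followed here across healthy and fibrotic mouse liver: Cyp2c29, Cyp2c37, Cyp2c38, Cyp2c39, Cyp2c40, Cyp2c44, Cyp2c50, Cyp2c54, Cyp2c55 and Cyp2c70. A member was taken to be every probe whose gene symbol in the platform annotation is one of these names. By this rule 13 of 25697 probes belonged to 8 of the 10 genes, and Cyp2c44 and Cyp2c54 had no probe by that symbol. The table of RefSeq genes lists Cyp2c44 as a synonym of Cyp2c23, which had no tested probe either. Of the 13 probes, 9 were above background on at least 3 arrays, and they gave 6 tested genes (Cyp2c29, Cyp2c37, Cyp2c39, Cyp2c50, Cyp2c55 and Cyp2c70) among 12863 tested features, called genes below.

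Gene expression was measured on 17 Illumina bead arrays of total liver RNA, in 4 groups. Healthy, untreated liver had 4 arrays, and 6 were of liver with fibrosis induced by CCl4 (carbon tetrachloride), a solvent that cytochrome P450 enzymes of hepatocytes turn into a toxic radical. Another 4 arrays were of CCl4-treated liver with FSP1 ablation, in which cells marked by FSP1 (S100a4, a marker used for fibroblasts) were the target, and 3 were of CCl4-treated liver with aSMA ablation (smooth muscle actin, Acta2, a marker used for myofibroblasts). A label tag named tk reads "FSP1 +" and "aSMA +" in these ablated groups, "Neg" in the CCl4 group and "No" in the healthy group. The labels give no strain, age, sex, dose or duration, and do not describe the transgene or the agent of the ablation. Nothing in them says that the arrays of a group are of separate mice, so the p-values measure the spread between these arrays, which may be technical. In the text below, CCl4 liver means CCl4-treated liver without ablation.

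Cyp2c enzymes sit in the endoplasmic reticulum, mostly of hepatocytes, and oxidise drugs, steroids, retinoids and fatty acids with electrons that arrive through P450 oxidoreductase. Several mouse members convert arachidonic acid or linoleic acid to epoxides or hydroxy acids, lipid mediators that soluble epoxide hydrolase (Ephx2) and other enzymes remove. Their transcription in liver depends on hepatocyte factors such as HNF4A, on the xenobiotic receptors CAR (Nr1i3) and PXR (Nr1i2), and, for some members, on growth hormone signalling that differs between males and females.

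RefSeq (GRCm38.p6) places 19 Cyp2c loci on mouse chromosome 19, pseudogenes included, and their order is given here without the distances between them. Cyp2c44, listed there as Cyp2c23, comes last. Cyp2c55 lies near one end, Cyp2c29, Cyp2c39 and Cyp2c38 follow as a group, Cyp2c40 lies in the middle, and Cyp2c37, Cyp2c54, Cyp2c50 and Cyp2c70 are consecutive near the other end. Promoter windows were found for 8 of the 10 members in the RefSeq promoter table (GRCm38.p6), as 9 windows because Cyp2c39 has 2 annotated starts, and that table does not say which start liver uses. The 250 bases before the start of Cyp2c37 and Cyp2c50 are shown because their probes moved together, those of Cyp2c29 and Cyp2c39 because these neighbours have alike promoters and different values across the arrays, and that of Cyp2c55 because it passed in more comparisons between groups than any other member. Capitals mark every CAAAGTNNA, on the strand shown.
Cyp2c37 (chr19:39992174-39992423, plus strand): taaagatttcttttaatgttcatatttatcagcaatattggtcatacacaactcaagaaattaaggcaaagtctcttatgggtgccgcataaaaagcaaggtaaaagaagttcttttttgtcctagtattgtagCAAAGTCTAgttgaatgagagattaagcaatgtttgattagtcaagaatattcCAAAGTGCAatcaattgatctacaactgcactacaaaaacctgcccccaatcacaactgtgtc
Cyp2c50 (chr19:40089429-40089678, plus strand): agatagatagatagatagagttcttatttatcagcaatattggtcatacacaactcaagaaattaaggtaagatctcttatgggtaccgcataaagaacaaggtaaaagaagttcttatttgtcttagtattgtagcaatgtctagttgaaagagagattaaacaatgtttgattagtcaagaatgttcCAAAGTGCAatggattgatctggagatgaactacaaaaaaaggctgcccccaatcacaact
Cyp2c29 (chr19:39286835-39287084, plus strand): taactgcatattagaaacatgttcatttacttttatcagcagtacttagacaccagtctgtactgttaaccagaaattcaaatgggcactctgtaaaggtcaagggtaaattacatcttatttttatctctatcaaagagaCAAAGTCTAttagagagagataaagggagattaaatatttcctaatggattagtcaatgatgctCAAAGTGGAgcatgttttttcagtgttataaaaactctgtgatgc
Cyp2c39, first start (chr19:39347096-39347345, plus strand): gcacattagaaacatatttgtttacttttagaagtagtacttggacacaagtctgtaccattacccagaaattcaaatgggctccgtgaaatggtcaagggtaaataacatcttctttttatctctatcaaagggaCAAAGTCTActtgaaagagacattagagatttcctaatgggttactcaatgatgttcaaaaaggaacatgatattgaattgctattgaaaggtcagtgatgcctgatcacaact
Cyp2c39, second start (chr19:39510572-39510821, plus strand): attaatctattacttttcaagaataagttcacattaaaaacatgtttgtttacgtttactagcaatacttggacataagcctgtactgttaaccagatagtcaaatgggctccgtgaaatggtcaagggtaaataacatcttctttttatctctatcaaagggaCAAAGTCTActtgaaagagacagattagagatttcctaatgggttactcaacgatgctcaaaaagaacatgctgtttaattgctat
Cyp2c55 (chr19:39006769-39007018, plus strand): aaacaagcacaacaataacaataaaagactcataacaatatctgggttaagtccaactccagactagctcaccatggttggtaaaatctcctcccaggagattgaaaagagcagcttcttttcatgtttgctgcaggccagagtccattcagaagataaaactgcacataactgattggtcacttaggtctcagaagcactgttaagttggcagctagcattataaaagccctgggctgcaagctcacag

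The windows of Cyp2c37 and Cyp2c50 were identical in 84.3% of their aligned positions, those of Cyp2c29 and the first start of Cyp2c39 in 74.1%, and those of Cyp2c38 and that start in 75.8%. The second start of Cyp2c39 matched Cyp2c29 in 68.1% and Cyp2c38 in 71%. Cyp2c55 matched Cyp2c37 and Cyp2c50 in 54.6% and Cyp2c29 in 53.5%. The letters CAAAGTCCA, the core of the HNF4A recognition sequence, were searched on both strands and occurred in 2 of the 9 windows (Cyp2c40 and Cyp2c70) and in 0.384% of the same upstream stretch of all 32851 promoter entries. The looser CAAAGTNNA, which contains it and was chosen after the sequences had been seen, occurred in 8 of the 9 windows, all but Cyp2c55, and in 3.57% of all entries. Its first letter lay 109 and 45 bases before the start of Cyp2c29, 116 and 63 before that of Cyp2c37, 61 before that of Cyp2c50, and 114 and 86 before the 2 starts of Cyp2c39. The STAT5 letters TTCNNNGAA occurred in 0 of the 9 windows and in 7.02% of all entries, the HNF1 letters (GTTAAT and ATTAAC with 1 base between) in 0 and 0.00913%, and the direct repeat known as a CAR and PXR element (AGGTCA repeated with 4 bases between) in 0 and 0.0152%. Related windows share letters by descent, so these counts are a description and say nothing about binding.

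Across the series, each array had 13784 to 15869 of 25697 probes above background, and precision is limited by how many arrays there are. The deposited intensities had upper quartiles of 63.7 to 65.7 in the healthy group and 165.4 to 178.8 elsewhere, and the arrays were brought to a common distribution by quantile normalization before any comparison. Y-linked Eif2s3y read 9.20 to 9.48 on 6 arrays (healthy arrays 1 to 4 and CCl4 arrays 5 and 6) and 5.73 to 5.97 on the other 11. Xist, made from the silenced X chromosome, was high in both ablated groups and on CCl4 arrays 1 to 3, while CCl4 array 4 had neither signal. The summed level of 10 of 13 hepatocyte markers stayed within 107097 and 128648 linear units on all arrays, although the Alb probe gave 8.60 to 9.26 for the aSMA ablated group and CCl4 arrays 4 to 6, and 6.28 to 6.73 for the rest. Quantile normalization gives all arrays the same distribution, which constrains a sum of bright probes, so that sum does not measure the share of hepatocytes. Acta2, the marker behind the aSMA ablation, ranged from 9.11 to 11.29 on CCl4 arrays, from 7.03 to 7.78 on FSP1 ablated arrays and from 7.43 to 9.27 on aSMA ablated arrays. Levels below are normalized log2 intensities, differences are log2 differences with their standard error (SE) from limma, and a gene passed when its Benjamini-Hochberg adjusted p over all 12863 genes was below 0.05. In bulk liver RNA, fewer hepatocytes and less transcript per hepatocyte cannot be told apart.

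Cyp2c37 and Cyp2c50, which oxidise arachidonic and linoleic acid, were read by 3 bright probes that could not be told apart. The brightest Cyp2c37 probe read 13.13, 13.20, 13.13 and 13.55 on the healthy arrays and 11.56 to 12.41 (median 12.19) on the 6 CCl4 arrays. On the FSP1 ablated arrays it read 11.49, 9.94, 13.54 and 11.82, and on the aSMA ablated arrays 13.25, 12.92 and 13.42. Every CCl4 array lay below every healthy array and every aSMA ablated array, while the 4 FSP1 ablated arrays covered a span wider than that of all other arrays, from the lowest value of the series on array 2 to about the highest on array 3. The brightest Cyp2c50 probe read 13.39, 13.34, 13.20 and 13.63 in healthy liver, 11.62 to 12.48 (median 12.17) in CCl4 liver, 11.29, 9.82, 13.50 and 11.89 after FSP1 ablation, and 13.32, 12.95 and 13.41 after aSMA ablation. It repeated the order of the Cyp2c37 probe in each of these respects. The 3 bright probes differed on any one array by only 0.04 to 0.32, and pairs of them had r = 1 over the 17 arrays. The probe sequences were not used here, and transcripts of these near-identical neighbours, or of Cyp2c54 between them, may bind the same probes.

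The dimmer probes of these genes did not all follow. The second Cyp2c50 probe averaged 9.28 ± 0.31 (SD, n = 4) on the healthy arrays, 7.89 ± 0.42 (n = 6) with CCl4 alone, 7.55 ± 1.33 (n = 4) after FSP1 ablation and 8.95 ± 0.38 (n = 3) after aSMA ablation, with r = 0.98 to the bright one. The third Cyp2c37 probe averaged 7.55 ± 0.08, 7.18 ± 0.42, 7.66 ± 1.13 and 8.49 ± 0.41 in the same order, with r = 0.76 to the brightest. On that probe healthy and CCl4 liver overlapped, and the 3 aSMA ablated arrays (8.70, 8.01 and 8.76) lay above all healthy and CCl4 arrays. FSP1 ablated array 3 was the highest array of its group on all 5 probes of the pair.

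Cyp2c29, an epoxygenase of arachidonic acid and a target of CAR in mouse liver, had its highest levels in healthy liver. Its brighter probe read 8.60, 7.82, 7.67 and 7.71 on the healthy arrays and 6.30 to 7.65 (median 6.65) on the CCl4 arrays. It read 7.08, 6.65, 7.70 and 7.23 on the FSP1 ablated arrays and 7.67, 7.20 and 7.52 on the aSMA ablated arrays. The healthy arrays lay above all CCl4 arrays, narrowly so for healthy array 3 over CCl4 array 4 (7.65), and the ablated groups lay between, the FSP1 ablated arrays overlapping both and the aSMA ablated arrays overlapping CCl4 liver. The other Cyp2c29 probe stayed within background throughout, with group means of 5.78 to 5.87, so the gene rests on 1 probe.

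Cyp2c39, which hydroxylates retinoic acid, was the member with the widest range. It read 9.07, 9.19, 9.25 and 8.55 on the healthy arrays, and 11.20, 10.53, 10.70 and 11.13 on CCl4 arrays 1 to 4 but 7.12 and 7.06 on CCl4 arrays 5 and 6. It read 12.29, 12.28, 12.23 and 12.11 on the FSP1 ablated arrays and 11.87, 11.26 and 11.72 on the aSMA ablated arrays. The CCl4 arrays thus formed 2 sets on either side of the healthy arrays, and the FSP1 ablated arrays lay above every other array of the series. The split followed the Y-linked signal: the 6 arrays with Y-linked signal read 7.06 to 9.25 and the other 11 read 10.53 to 12.29. Within the arrays with Y-linked signal the 2 CCl4 arrays lay below the 4 healthy ones, and within the arrays without it the 4 CCl4 arrays lay below all 7 ablated ones.

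**Figure D1:**
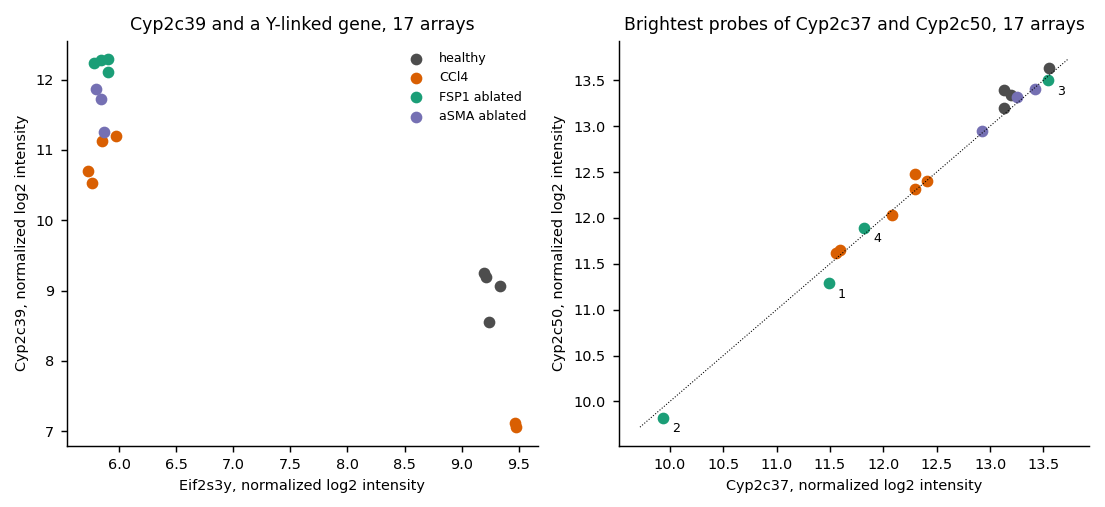
Left, Cyp2c39 against the Y-linked gene Eif2s3y, and right, the brightest probes of Cyp2c37 and Cyp2c50 against each other, both as normalized log2 intensity with 1 point per array (17 arrays) coloured by group. Arrays with Eif2s3y at 9.20 or more read 7.06 to 9.25 for Cyp2c39 and the others at least 10.53, and the Cyp2c37 and Cyp2c50 probes stay close to the dotted line of equal values, with FSP1 ablated arrays 1 to 4 (numbered) from 9.94 to 13.54 on the x axis.

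Cyp2c55, an arachidonic acid hydroxylase known to be induced in mouse liver by activators of CAR and PXR, parted the groups into a high and a low pair. It read 6.97, 6.29, 7.03 and 6.73 on the healthy arrays and 7.52 to 8.94 (median 8.4) on the CCl4 arrays. It read 6.30, 6.14, 6.33 and 6.21 on the FSP1 ablated arrays and 8.61, 9.13 and 8.82 on the aSMA ablated arrays. All CCl4 and aSMA ablated arrays were above all healthy and FSP1 ablated arrays, the CCl4 and aSMA ablated arrays overlapped, and the FSP1 ablated arrays overlapped only the lowest healthy array. Its order did not follow the Y-linked signal: CCl4 arrays 5 and 6 read 8.41 and 8.03, within the range of CCl4 arrays 1 to 4. The summed level of 6 of 8 dividing cell markers parted the groups into the same pairs, though not in the same order within them, with 465 to 614 linear units on healthy, 3401 to 11414 on CCl4, 505 to 1256 on FSP1 ablated and 2030 to 3543 on aSMA ablated arrays. That of 10 of 10 stellate cell or myofibroblast markers was 1809 to 2933, 6436 to 10128, 3664 to 5055 and 5901 to 7838 in that order. The part of these cells in the Cyp2c55 signal was not tested.

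Cyp2c70, the enzyme that makes the muricholic acids of mouse bile, varied least. It read 13.78, 13.60, 13.41 and 13.43 on the healthy arrays and 12.97 to 13.96 (median 13.83) on the CCl4 arrays. It read 13.81, 13.47, 14.19 and 14.01 on the FSP1 ablated arrays and 13.86, 13.89 and 13.80 on the aSMA ablated arrays. Healthy, CCl4 and FSP1 ablated arrays overlapped, and the lowest values belonged to CCl4 arrays 5 and 6, at 12.97 and 13.35. Cyp2c38, an arachidonic acid epoxygenase, and Cyp2c40, an arachidonic acid hydroxylase, were at background. The Cyp2c38 probe had group means of 5.79 to 5.85 and the 2 Cyp2c40 probes of 5.87 to 6.0, and of these probes 1 of Cyp2c40 was above background on 1 array, of the aSMA ablated group. These genes were not tested, and no level can be given for them.

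**Figure D2:**
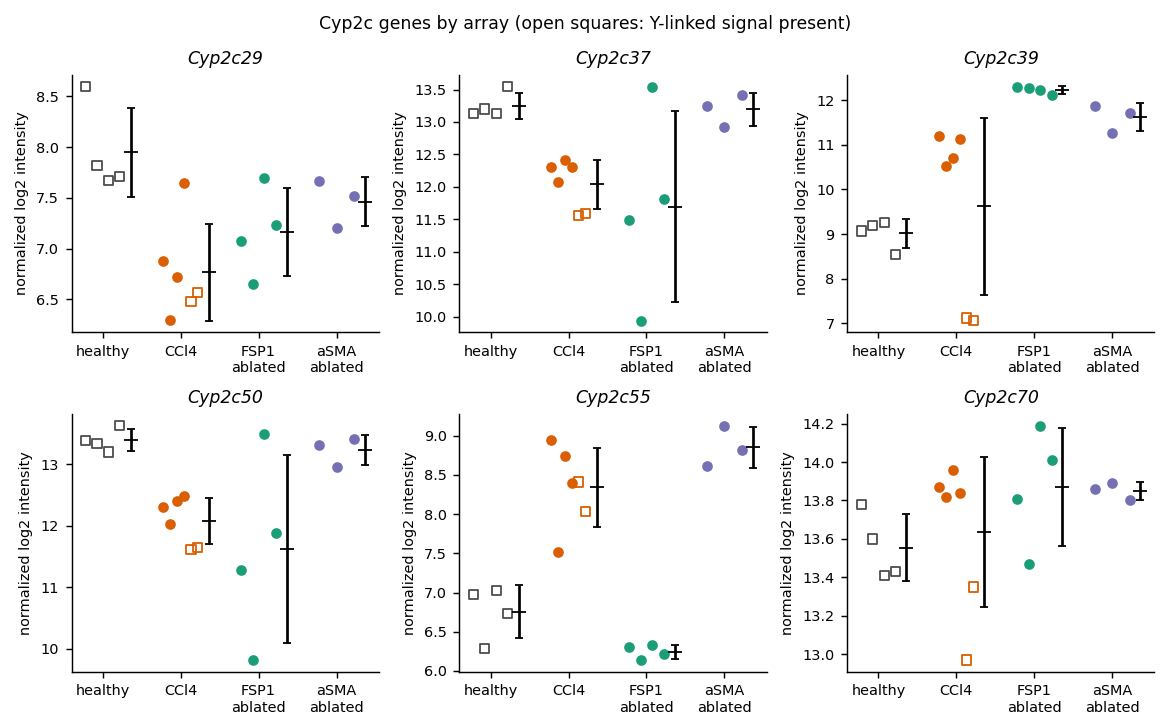
Normalized log2 intensity (y axis) of the 6 tested Cyp2c genes on each of 17 arrays, by group (x axis), with the group mean and SD beside the points and open squares for the 6 arrays with Y-linked signal. Each panel has its own y axis; Cyp2c55 lies at 6.14 to 6.33 after FSP1 ablation and at 7.52 to 9.13 in CCl4 and aSMA ablated liver, and the Cyp2c39 arrays of CCl4 liver fall into 2 sets.

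The first comparison, of CCl4 liver with healthy liver, describes the family in toxic fibrosis. Cyp2c29, Cyp2c37 and Cyp2c50 fell and Cyp2c55 rose, so that 4 of the 6 tested members passed, and Cyp2c39 and Cyp2c70 did not pass. Cyp2c37 and Cyp2c50, both among the 4, are read by probes that could not be told apart and may be the same signal. The count and the median over members take them as separate genes. Of all genes 34.1% passed in this comparison, 16.8% as higher and 17.3% as lower, and the median difference was -0.55 over the 6 members and -0.02 over all genes. Cyp2c29 fell by 1.18 (SE 0.26, adjusted p = 0.00242), a 2.27-fold lower level. All 6 CCl4 arrays lay below every healthy array, though CCl4 array 4, at 7.65, nearly reached the lowest healthy value, 7.67. Cyp2c55 was higher by 1.58 (SE 0.22, adjusted p = 8.08e-05), a 3-fold difference shared by all 6 arrays.

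Cyp2c37 fell by 1.21 (SE 0.45, adjusted p = 0.048) and Cyp2c50 by 1.31 (SE 0.46, adjusted p = 0.0387), again on every CCl4 array. Both calls stood close to the threshold: the Cyp2c37 call was lost when any single healthy or CCl4 array was left out (adjusted p = 0.0523 to 0.119), and the Cyp2c50 call on removing any healthy array, or CCl4 array 2, 5 or 6 (up to adjusted p = 0.0959). When every probe was tested on its own, the 3 Cyp2c37 probes gave adjusted p = 0.0505, 0.0629 and 0.474, and the second Cyp2c50 probe differed by -1.38 (adjusted p = 0.0219). The spread of the FSP1 ablated arrays enters this test, since all groups share 1 estimate of it. For the brightest Cyp2c37 probe the SD was 1.48 there, 0.2 in healthy and 0.38 in CCl4 liver. Over the 24 alternative settings the adjusted p ran from 0.00106 to 0.424 for Cyp2c37 and from 0.000647 to 0.326 for Cyp2c50. Cyp2c70 differed by 0.08, with a 95% interval from -0.30 to 0.46 (adjusted p = 0.765).

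The Cyp2c39 difference between CCl4 and healthy liver was 0.61 (SE 0.73, adjusted p = 0.552) and depended on the CCl4 arrays used. Blocking on the Y-linked signal, so that arrays are compared only with arrays of the same Y-linked state, gave -1.93 (SE 0.21, adjusted p = 4.42e-05), a value that rests on CCl4 arrays 5 and 6. CCl4 arrays 1 to 3 alone gave 1.80 (adjusted p = 0.052), and arrays 4 to 6 alone gave -0.58 (adjusted p = 0.562). Cyp2c29 and Cyp2c55 kept their side of the threshold in these 3 settings, at -1.43, -1.31 and -1.05 for Cyp2c29 and at 1.46, 1.65 and 1.52 for Cyp2c55. Cyp2c37 and Cyp2c50 had differences of -0.99 to -1.75 there, and neither passed (adjusted p = 0.0581 to 0.166).

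Levels set against healthy liver depend on the scaling, because the deposited values of the healthy arrays lie lower as a whole. Without rescaling between arrays the median of all genes shifted to 0.58, and Cyp2c29, Cyp2c37 and Cyp2c50 stood at -0.24, -0.40 and -0.51, below that median but not passing (adjusted p = 0.326 to 0.424). With each array centred on its median the shift was 0.31, and they stood at -0.52, -0.68 and -0.78 (adjusted p = 0.104 to 0.228). Among all passing genes the share of higher ones went from 49.3% to 99.4% and 88.5% under these scalings. Cyp2c55 passed under both scalings, and Cyp2c70 became higher, by 0.84 (adjusted p = 0.000347) and 0.56 (adjusted p = 0.00968).

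Other P450 genes fell alongside in CCl4 liver. Of the other Cyp2c genes only Cyp2c67 of 6 was measured, and it fell by 1.40 (SE 0.19, adjusted p = 5.04e-05). Of 17 measured of 22 other Cyp2 genes, 10 fell and 1 rose, where 17.3% of all genes were lower and 16.8% higher. Cyp2u1, a fatty acid hydroxylase, fell by 1.68 (adjusted p = 1.34e-06), Cyp2d40 by 1.82 (adjusted p = 0.000298), Cyp2d10 by 0.88 (adjusted p = 0.000413), and Cyp2e1, the enzyme that activates CCl4, by 1.52 (adjusted p = 0.00646). Cyp2u1 averaged 6.14 in CCl4 liver and was above background on 4 of the 6 CCl4 arrays, so its level there lies near the floor. Cyp2b9, a female-biased P450, was higher by 3.11 (adjusted p = 0.0118), and the Y-linked block left 0.28 of this (adjusted p = 0.71). With that block the Cyp2e1 difference was -0.79 (adjusted p = 0.234). The summed level of 10 of 11 pericentral hepatocyte markers, among them Cyp2e1 and glutamine synthetase (Glul), was 54496 to 56535 linear units on healthy arrays, 9528 to 28091 on CCl4 arrays, 19261 to 34430 after FSP1 ablation and 19548 to 30198 after aSMA ablation. The part of these shifts in the fall of the Cyp2c genes was not tested.

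Of the genes that serve P450 enzymes with electrons and haem, 12 of 14 were measured, and P450 oxidoreductase (Por) had no probe by that symbol. Where 17.3% of all genes were lower and 16.8% higher, 3 of these 12 fell and 0 rose. Those that fell were Alas1, the rate-limiting enzyme of haem synthesis, by 0.64 (adjusted p = 0.033), and Alad and Uros, later steps of that pathway, each by 0.40 (adjusted p = 0.0404 and 0.0116). Of 13 measured of 16 genes of epoxide and eicosanoid handling, 5 fell and 2 rose. Cyp4f13 and Cyp4a12b, fatty acid hydroxylases, fell by 1.59 (adjusted p = 8.6e-07) and 2.62 (adjusted p = 3.55e-05), and Ephx2 fell by 0.92 (adjusted p = 0.0161). Cyp4a12b averaged 6.22 in CCl4 liver, near the floor, and was above background on 5 of the 6 CCl4 arrays. Alox5ap, which presents arachidonic acid to lipoxygenase in leukocytes, rose by 1.08 (adjusted p = 0.000117), and the summed level of 7 of 10 macrophage markers was 8832 to 18443 on CCl4 arrays against 3091 to 5978 on healthy ones.

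In CCl4 against healthy liver 17.3% of all genes were lower and 16.8% higher. Among 18 measured of 22 nuclear receptors and liver transcription factors, 3 fell and 1 rose. Nr1i3 (CAR) fell by 1.34 (SE 0.23, adjusted p = 0.000487), its partner Rxra by 0.70 (adjusted p = 9.37e-05), and Onecut1, a hepatocyte factor read near background, by 0.17 (adjusted p = 0.0101). Nr1i2 (PXR) differed by -0.26 (adjusted p = 0.255), with -0.54 (adjusted p = 0.019, passing) from CCl4 arrays 1 to 3 and 0.01 from arrays 4 to 6, and Hnf4a differed by -0.03 (adjusted p = 0.865). Of 16 measured of 21 enzymes and transporters known as targets of CAR or PXR, 2 rose and 2 fell, against the same shares. Abcc2, a canalicular exporter, rose by 0.69 (adjusted p = 0.000168), Gsta1, a glutathione transferase, rose by 1.41 (adjusted p = 0.00258), and Ces2a, a carboxylesterase, fell by 0.41 (adjusted p = 0.00252). Ces2a was above background on 3 of the 6 CCl4 arrays, so its level there lies near the floor. When Y-linked signal was blocked, Alas1, Alad, Ephx2, Onecut1 and Ces2a no longer passed (adjusted p = 0.0594 to 0.422). Uros and Alad did not pass with CCl4 arrays 1 to 3 alone (adjusted p = 0.0548 and 0.19), nor did Alas1, Ephx2, Cyp2e1, Cyp2b9 and Abcd2 with arrays 4 to 6 alone (adjusted p = 0.061 to 0.172). Without rescaling, where the median of all genes was 0.58, Alas1, Alad, Uros, Rxra, Onecut1 and Ephx2 stood at 0.01 to 0.68 and so did not lie below 0.

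Of the genes with a known sex bias in mouse liver, male-biased ones fell in CCl4 liver. Of 19 measured of 24 male-biased genes 15 fell and 0 rose, where 17.3% of all genes were lower, and the list's median was -2.06. Among them were Susd4, which fell by 2.63 (adjusted p = 2.05e-09), Nudt7, which fell by 1.67 (adjusted p = 1.58e-05), and Elovl3, a fatty acid elongase, which averaged 9.10 on the healthy arrays and had a median of 6.01 on the CCl4 arrays (adjusted p = 1.16e-05). Elovl3 was above background on 2 and Susd4 on 3 of the 6 CCl4 arrays, so their levels there lie near the floor. Of 15 measured of 26 female-biased genes 3 rose and 0 fell, where 16.8% of all genes were higher, and the list's median was 0.04. These were Cyp2b9, Abcd2 (0.66 higher, adjusted p = 0.0111) and Hao2, which averaged 6.98 in CCl4 liver and was not well above background on any healthy array (adjusted p = 0.000979). Of these rises none passed in the fit blocked on Y-linked signal (adjusted p = 0.0617 to 0.71). The 3 named male-biased genes did pass in that fit. Susd4 stood at -2.41 (adjusted p = 1.34e-07), Nudt7 at -1.27 (adjusted p = 0.00119) and Elovl3 at -1.77 (adjusted p = 9.03e-05). The 4 healthy arrays all carry Y-linked signal and 4 of the 6 CCl4 arrays do not, so that only CCl4 arrays 5 and 6 share it with healthy liver.

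**Figure D3:**
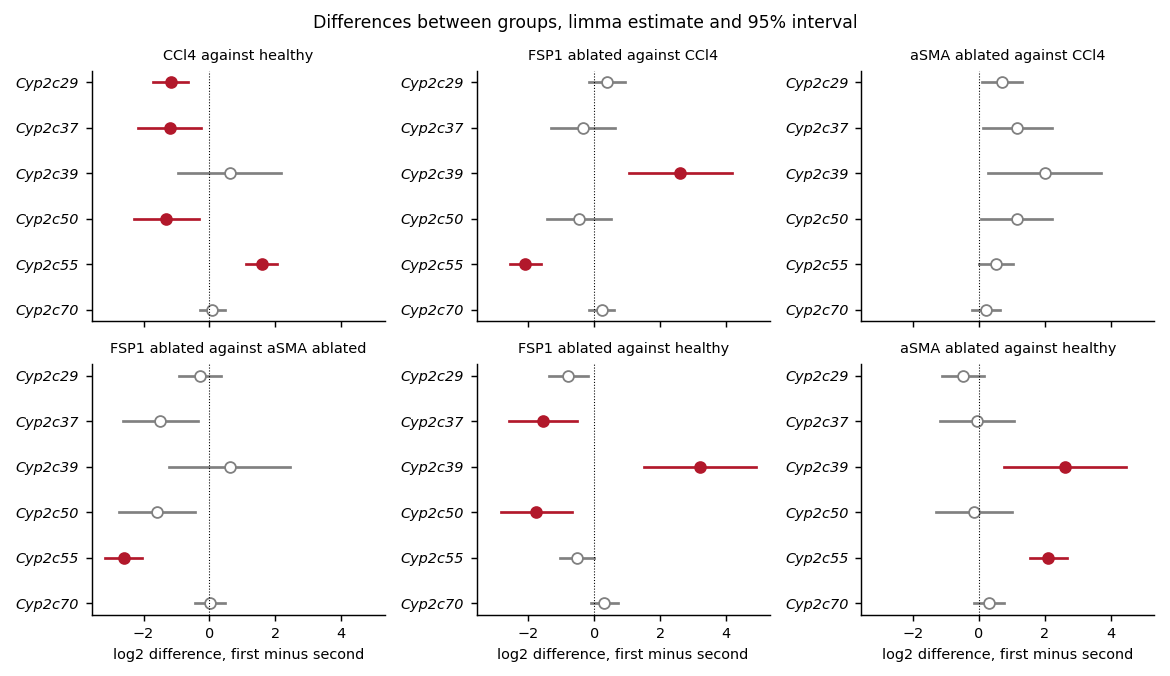
Log2 differences (x axis) of the 6 tested Cyp2c genes in the 6 comparisons between groups, with 95% intervals from limma and filled points where the adjusted p over all genes was below 0.05. Cyp2c55 passes in 4 comparisons, with differences from -2.61 to 2.10, Cyp2c39 has the widest intervals, and no member passes for aSMA ablated against CCl4 liver.

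FSP1 ablated liver was compared with CCl4 liver to describe the family after FSP1 ablation. Cyp2c55 fell and Cyp2c39 rose, while Cyp2c29, Cyp2c37, Cyp2c50 and Cyp2c70 did not pass. Thus 2 of 6 tested members passed, against 13% of all genes (5.5% higher and 7.46% lower), and the median difference was -0.05 over the members and 0.01 over all genes. Cyp2c55 fell by 2.10 (SE 0.22, adjusted p = 2.16e-05), a 4.28-fold lower level on all 4 arrays, at or below the healthy range after normalization. Its deposited intensities were 17.3 to 31.6 on these arrays and 11.1 to 33.6 on the healthy ones, so both lie near the floor. Without rescaling between arrays Cyp2c55 differed by 0.03 between FSP1 ablated and healthy liver (adjusted p = 0.907). Cyp2c39 was higher by 2.60 (SE 0.73, adjusted p = 0.0281), a 6.08-fold difference, and again every FSP1 ablated array lay above every CCl4 array.

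The size of the Cyp2c39 difference depended on which CCl4 arrays were used. With Y-linked signal as a block, which sets the FSP1 ablated arrays against CCl4 arrays 1 to 4, it was 1.34 (SE 0.18, adjusted p = 0.000194). With only CCl4 arrays 1 to 3 as the reference the value was 1.42 (adjusted p = 0.211), and with only arrays 4 to 6 it was 3.79 (adjusted p = 0.00172). Leaving out any one FSP1 ablated array moved the adjusted p to between 0.0567 and 0.0698 at differences of 2.58 to 2.64. The Cyp2c55 difference was -2.16, -2.16 and -2.04 in the first 3 of these settings and passed in each.

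The 4 FSP1 ablated arrays did not share a direction for Cyp2c37 and Cyp2c50. The mean differences were -0.34 (SE 0.45, 95% interval -1.30 to 0.62, adjusted p = 0.695) and -0.46 (95% interval -1.44 to 0.52, adjusted p = 0.584), and without array 2 they were 0.25 and 0.14. Array 3, at 13.54 and 13.50, lay above every CCl4 array, array 2, at 9.94 and 9.82, lay below every CCl4 array, array 1 lay below every CCl4 array too, and array 4 lay among them. Cyp2c29 differed by 0.40 (95% interval -0.15 to 0.94, adjusted p = 0.361) and Cyp2c70 by 0.23 (95% interval -0.15 to 0.61, adjusted p = 0.453).

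Genes of the P450 lists around the members were counted in FSP1 ablated against CCl4 liver. There 13% of all genes passed, 5.5% as higher and 7.46% as lower. Of 17 other Cyp2 genes 1 passed, Cyp2d40, which rose by 1.27 (adjusted p = 0.0104), and Cyp2c67 differed by 0.10 (adjusted p = 0.782). Of the 12 electron and haem genes 1 rose and 2 fell: Alas1 rose by 0.68 (adjusted p = 0.0495), Alad fell by 0.75 (adjusted p = 0.00237) and Ppox, a late step of haem synthesis, fell by 0.38 (adjusted p = 0.0432). Of the 13 epoxide and eicosanoid genes Cyp4f13 rose by 0.69 (adjusted p = 0.00279) and 0 fell, and Ephx2 differed by -0.55 (adjusted p = 0.213). For Ephx2 only arrays 4 to 6 of CCl4 liver gave a passing value, -1.01 (adjusted p = 0.00936), whereas arrays 1 to 3 gave -0.09 (adjusted p = 0.888).

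Of 16 CAR and PXR targets 3 fell and 0 rose, where 7.46% of all genes were lower and 5.5% higher. The list's median was -0.08. Gsta1 fell by 3.05 (SE 0.31, adjusted p = 1.5e-05), Abcc2 by 0.78 (adjusted p = 0.000177) and Aldh1a1, a retinal dehydrogenase, by 1.14 (adjusted p = 0.0102). The receptors themselves did not pass, with Nr1i3 at 0.64 (adjusted p = 0.0869) and Nr1i2 at 0.07 (adjusted p = 0.852). Of the 18 transcription factors 1 rose and 1 fell. Cux2, a female-biased repressor of male-biased liver genes, rose by 2.25 (SE 0.13, adjusted p = 7.25e-08), and Bcl6, a male-biased repressor of female-biased genes, fell by 1.64 (adjusted p = 0.0178). Hnf4a differed by 0.18 (adjusted p = 0.381).

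Of the 15 female-biased genes 7 rose and 0 fell after FSP1 ablation, where 5.5% of all genes were higher, and the list's median was 0.43. They included Cux2, Cyp17a1, a steroid hydroxylase, which rose by 3.63 (adjusted p = 0.000287), and Sult1e1, the estrogen sulfotransferase, which rose by 1.20 (adjusted p = 0.00249). Sult1e1 was above background on 3 of the 6 CCl4 arrays, so its level there lies near the floor. Of the 19 male-biased genes only Selenbp2 passed, and it fell by 1.74 (adjusted p = 0.0288). In the Y-blocked fit Cux2 stood at 2.20 (adjusted p = 8.34e-07) and Cyp17a1 at 3.20 (adjusted p = 0.00105). Bcl6, at -1.43 (adjusted p = 0.0583), and Ppox, at -0.39 (adjusted p = 0.0721), no longer passed in that fit. Against CCl4 arrays 1 to 3 alone, Alas1, Ppox, Aldh1a1, Bcl6 and Selenbp2 did not pass (adjusted p = 0.0698 to 0.19), while Cyp2e1, at 0.80 against all 6 (adjusted p = 0.198), passed at 1.55 (adjusted p = 0.00244). Alas1 did not pass against CCl4 arrays 4 to 6 alone either, at 0.6 (adjusted p = 0.13).

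aSMA ablated liver was compared with CCl4 liver to describe the family after aSMA ablation. No member passed, although the 3 aSMA ablated arrays lay above all 6 CCl4 arrays for Cyp2c37, Cyp2c39 and Cyp2c50, 3 of the 6 tested members, of which Cyp2c37 and Cyp2c50 are read by probes that could not be told apart. The same held for 2.27% of all genes. Of all genes 0.00777% passed, which is 1 gene, with 1440 genes at an unadjusted p below 0.05, and 4 of the 6 members were among these. The median difference was 0.92 over the members and 0 over all genes. Cyp2c37 differed by 1.16 (SE 0.49, adjusted p = 0.399), Cyp2c50 by 1.14 (SE 0.51, adjusted p = 0.422), Cyp2c39 by 1.99 (SE 0.80, adjusted p = 0.361) and Cyp2c29 by 0.69 (SE 0.28, adjusted p = 0.361).

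The remaining members had small differences after aSMA ablation. Cyp2c55 differed by 0.51 (95% interval 0.00 to 1.03, adjusted p = 0.451) and Cyp2c70 by 0.21 (95% interval -0.20 to 0.63, adjusted p = 0.763). With array weights, which gave 1658 passing genes in place of 1, Cyp2c29 passed at 0.81 (adjusted p = 0.014) and Cyp2c37 at 1.19 (adjusted p = 0.0458). In the Y-blocked fit, again against CCl4 arrays 1 to 4, Cyp2c39 stood at 0.73 (adjusted p = 0.0655). The value was 0.81 (adjusted p = 0.587) when only CCl4 arrays 1 to 3 were used and 3.18 (adjusted p = 0.153) when only arrays 4 to 6 were.

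None of the P450 lists held a passing gene for aSMA ablated against CCl4 liver. The gene of smallest p was Cyp2d26 among the other Cyp2 genes (0.56, adjusted p = 0.225), Nr1i3 among the transcription factors (0.94, adjusted p = 0.175) and Slc22a26 among the female-biased genes (1.14, adjusted p = 0.104). Nr1i2 differed by 0.69 (adjusted p = 0.177), Alas1 by 0.73 (adjusted p = 0.249), Cyp2e1 by 0.88 (adjusted p = 0.456) and Cyp2c67 by -0.58 (adjusted p = 0.28). With array weights Nr1i3 stood at 1.17 (adjusted p = 0.00474), Nr1i2 at 0.92 (adjusted p = 0.00318), Alas1 at 0.91 (adjusted p = 0.0107) and Cyp2c67 at -0.62 (adjusted p = 0.022), each passing. Against CCl4 arrays 1 to 3 alone Cyp2e1 stood at 1.63 (adjusted p = 0.00539), Nr1i2 at 0.96 (adjusted p = 0.00378), Nr1i3 at 1.03 (adjusted p = 0.0441) and Slc22a26 at 1.12 (adjusted p = 0.0283), all passing. Against arrays 4 to 6 Cyp2e1 stood at 0.14, and in the Y-blocked fit Nr1i2 passed at 0.90 (adjusted p = 0.0214). In the male-biased list Cyp7b1, a bile acid and steroid hydroxylase, differed by -1.42 (adjusted p = 0.392), and among the CAR and PXR targets Cyp3a13 differed by 0.82 (adjusted p = 0.463).

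**Figure D4:**
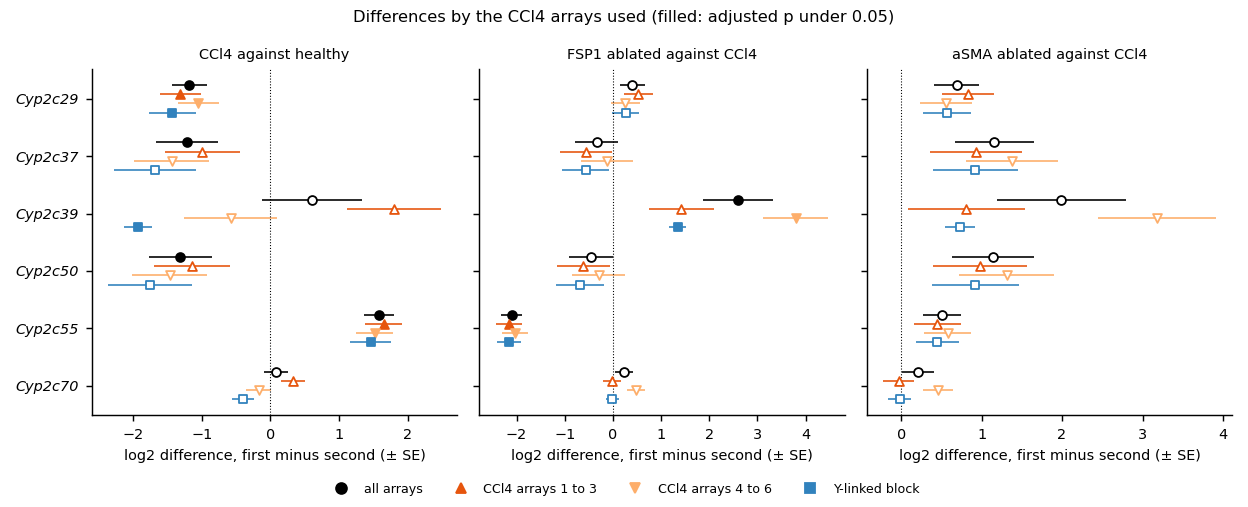
Log2 differences (x axis, bars ± SE) of the 6 tested Cyp2c genes in the 3 comparisons that use the CCl4 arrays, with all arrays, with CCl4 arrays 1 to 3, with CCl4 arrays 4 to 6 and with Y-linked signal as a block, filled where the adjusted p was below 0.05. Cyp2c55 and Cyp2c29 keep their place across the 4 settings, while Cyp2c39 against healthy liver runs from -1.93 to 1.80 and after FSP1 ablation from 1.34 to 3.79.

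The 2 ablations were compared directly. Of the 6 members Cyp2c55 passed, against 4.52% of all genes (1.9% higher and 2.62% lower). It was lower after FSP1 ablation, with a difference of -2.61 (SE 0.26, adjusted p = 0.000125), which is 6.11-fold, with no overlap between the 4 and the 3 arrays. Cyp2c37 differed by -1.50 (adjusted p = 0.121) and Cyp2c50 by -1.60 (adjusted p = 0.104), and without FSP1 ablated array 3 both passed, at -2.11 (adjusted p = 0.00678) and -2.23 (adjusted p = 0.0062). Without FSP1 ablated array 2 they were -0.91 (adjusted p = 0.269) and -1.0 (adjusted p = 0.23). Cyp2c39 differed by 0.61 (95% interval -1.24 to 2.46, adjusted p = 0.757), Cyp2c29 by -0.30 (adjusted p = 0.635) and Cyp2c70 by 0.02 (95% interval -0.43 to 0.47, adjusted p = 0.978). The spread of Cyp2c39 on the CCl4 arrays (SD 1.98) enters its interval, since all groups share an estimate of it. Its SD was 0.08 after FSP1 ablation and 0.31 after aSMA ablation. With Y-linked signal as a block the Cyp2c39 difference was 0.61 (SE 0.19, adjusted p = 0.0679). None of the FSP1 ablated and aSMA ablated arrays carries Y-linked signal.

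Each ablated group was also compared with healthy liver, which lacks both the CCl4 treatment and the ablation. In FSP1 ablated liver 3 of 6 members passed, against 17.7% of all genes (9.05% higher and 8.65% lower). Cyp2c37 and Cyp2c50, both among the 3, are read by probes that could not be told apart and may be the same signal. Cyp2c37 fell by 1.56 (SE 0.49, adjusted p = 0.0402) and Cyp2c50 by 1.77 (SE 0.51, adjusted p = 0.0255), although array 3 lay within the healthy range. On the third Cyp2c37 probe the difference was 0.11 (adjusted p = 0.891 in the fit of every probe), so the Cyp2c37 fall rests on its bright probes. Under the 20 alternatives Cyp2c37 ranged from -2.25 to -0.63 and passed in 9. Cyp2c39 was higher by 3.21 (SE 0.80, adjusted p = 0.0132), Cyp2c29 stood at -0.79 (adjusted p = 0.0642) and Cyp2c55 at -0.51 (adjusted p = 0.159). In aSMA ablated liver 2 of 6 passed, both higher, against 22.7% of all genes (11.4% higher and 11.3% lower): Cyp2c55 by 2.10 (SE 0.26, adjusted p = 8.17e-05) and Cyp2c39 by 2.60 (SE 0.87, adjusted p = 0.0419). Cyp2c37 differed there by -0.06 (95% interval -1.19 to 1.07, adjusted p = 0.951), Cyp2c50 by -0.16 (95% interval -1.32 to 0.99, adjusted p = 0.86) and Cyp2c29 by -0.49 (adjusted p = 0.268). The third Cyp2c37 probe differed by 0.94 (adjusted p = 0.142 in the fit of every probe). Without rescaling, where the median of all genes was 0.62, Cyp2c37, Cyp2c50 and Cyp2c29 stood at 0.90, 0.77 and 0.53 (adjusted p = 0.121 to 0.225). Cyp2c70 differed by 0.31 (adjusted p = 0.293) after FSP1 and 0.29 (adjusted p = 0.344) after aSMA ablation. Under the alternatives Cyp2c70 reached 1.31 and 1.25, passing in 2 of 20 and 2 of 19.

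The rises of Cyp2c39 over healthy liver did not hold with Y-linked signal as a block, where they were -0.59 (adjusted p = 0.304) after FSP1 ablation and -1.20 (adjusted p = 0.017) after aSMA ablation. No array of either ablation carries Y-linked signal and every healthy array does, so these blocked values pass through the CCl4 arrays, and ablation and sex chromosome signal cannot be told apart in the direct comparison. The aSMA call of Cyp2c39 was also lost when any one healthy or aSMA ablated array was left out (adjusted p = 0.0551 to 0.107). The spread of Cyp2c39 on the CCl4 arrays enters these p-values too. After FSP1 ablation the Cyp2c37 call was lost without any one of healthy arrays 2, 3 and 4 and FSP1 ablated arrays 1, 2 and 4 (up to adjusted p = 0.105), and the Cyp2c50 call without any one of healthy arrays 2, 3 and 4 and FSP1 ablated arrays 1 and 2 (up to adjusted p = 0.0711). Without FSP1 ablated array 2 the differences were -0.97 and -1.16, and without array 3 they were -2.17 and -2.39. These comparisons share the healthy or the CCl4 arrays with those above and are not independent of them.

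Within the family the members fell into few patterns, described by Pearson correlations over the 17 arrays, which share their groups and their normalization. Cyp2c29 correlated with Cyp2c37 (r = 0.69) and Cyp2c50 (r = 0.72), and Cyp2c39 with Cyp2c70 (r = 0.77). Cyp2c39 had r = -0.07 with Cyp2c37 and r = 0.06 with its neighbour Cyp2c29, and Cyp2c55 had r between -0.24 and 0.20 with all probes of other members. The genes outside the family whose values were most like a member's were Nfix (r = 0.93) and Tmem266 (r = 0.91) for Cyp2c29, Slc47a1 and Zap70 for Cyp2c37 (both r = 0.89) and for Cyp2c50 (r = 0.87 and 0.91). They were Noct and Nt5e for Cyp2c39 (both r = 0.89), Akr1c18 and Mpp1 for Cyp2c55 (both r = 0.88), and Tbx6 (r = 0.84) and Nudt16l2 (r = 0.82) for Cyp2c70.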

How the data were processed

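Mouse liver RNA on 17 arrays in 4 groups was analysed from the deposited intensity values, 1 linear signal per probe and array, which per the submitters' processing notes the authors read with GenomeStudio. Its version, and any background correction or normalization, are not given in the sources consulted, and 34 columns of another table were not used because their names match no label. The table holds signals only, so each array's background was centred on the mode of its values, with the SD computed from values under that mode. Probes exceeding the 95th percentile of this background on 3 or more arrays were kept (17450 of 25697). Deposited intensities were background corrected by normexp (offset 50), quantile normalized and put on the log2 scale with limma 3.58.1 in R 4.3.3. Of all probes 23978 had 1 gene symbol in GEO's platform annotation, 0 had several and 1719 had none, and of their Entrez identifiers 23962 matched RefSeq. The probe with the highest mean stood for a gene. One limma fit (lmFit, eBayes, group as the only term, two-sided) gave 6 comparisons, adjusted by Benjamini-Hochberg over 12863 genes at 0.05, and was tested on simulated data. The highest correlation between arrays was 0.995, and none was identical to another. Titles number the arrays in each group, but same-numbered arrays of different groups did not deviate together (21 pairs, r = -0.30 to 0.38, mean 0.03), so numbers were not used as pairs. Members and gene lists were chosen with earlier results of these data known, and list counts are descriptions. Named genes are all members, up to 3 genes with the smallest p of each list that passed in a comparison (otherwise the 1 with the smallest p), for the 3 comparisons with the CCl4 group, plus Ephx2, Nr1i3, Nr1i2, Hnf4a and Cyp2e1, and the 2 genes most correlated with each member. Lists of bile acid and retinoid genes were counted without naming genes: 7 of 14 and 2 of 14 fell and 0 and 2 rose in CCl4 against healthy liver, 1 and 2 fell and 1 and 1 rose after FSP1 ablation, and 0 passed after aSMA ablation against CCl4 liver. Of all genes 17.3% fell and 16.8% rose in CCl4 against healthy liver, and 7.46% fell and 5.5% rose after FSP1 ablation. Alternatives were quantile normalization without background correction, normexp with offset 16, no rescaling, median centring, no filter or the 99th percentile, a fit of every probe, eBayes with trend and robust variances, array weights, a replicate block, Y-linked signal as a block, CCl4 arrays 1 to 3 or 4 to 6, a fit to only the groups compared, and omission of each array. Promoters are from RefSeq and were aligned end to end with Biopython 1.88.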

Additional observations from a re-analysis of the deposited data

Results flagged for a closer look

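Among 18 combinations of a tested member with a group of 4 to 6 arrays, 1 held an array far from the rest. Healthy array 1 read 8.60 for Cyp2c29 and the nearest other healthy array read 7.82, a gap that is 0.84 of the range of the group and above the limit of Dixon's test for 4 arrays. Chance alone sets off this test in about 1 of 20 groups. Without that array Cyp2c29 differed by -0.96 between CCl4 and healthy liver and still passed (adjusted p = 0.00834).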

How the results depend on the processing

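Of the 6 tested members, Cyp2c55 passed in the same direction under all 24 alternatives for CCl4 against healthy liver (1.43 to 2.32) and for FSP1 ablated against CCl4 liver (-2.79 to -1.98), and under all 19 for FSP1 against aSMA ablated liver and aSMA ablated against healthy liver. Cyp2c29 passed in 22 of 24 for CCl4 against healthy liver, Cyp2c50 in 10 and Cyp2c37 in 5, and Cyp2c39 in 18 of 24 for FSP1 ablated against CCl4 liver. The number of members passing for CCl4 against healthy liver, 4, became 2 without rescaling, with median centring, without a filter, with CCl4 arrays 1 to 3 and with CCl4 arrays 4 to 6, and was 2 to 3 when 1 array was left out, here and below always an array of the groups compared. For FSP1 ablated against CCl4 liver, 2 became 1 with CCl4 arrays 1 to 3 and with only the groups compared, and 1 to 2 on leaving out an array. For FSP1 ablated against healthy liver, 3 became 0 with Y-linked signal as a block, 1 with only the groups compared and 1 to 4 on leaving out an array. For aSMA ablated against healthy liver, 2 became 1 without a filter, with trend and robust variances and on leaving out any one healthy or aSMA ablated array. With array weights 0 became 2 for aSMA ablated against CCl4 liver and 1 became 3 for FSP1 against aSMA ablated liver, where leaving out an array gave 0 to 0 and 1 to 3. Among members' differences with a passing value, directions turned with Y-linked signal as a block for Cyp2c39 against healthy liver (-1.93 in CCl4, -0.59 after FSP1 and -1.20 after aSMA ablation). In CCl4 against healthy liver they turned without rescaling for Uros (0.68), Alas1 (0.12), Alad (0.37), Rxra (0.35), Onecut1 (0.06), Ephx2 (0.01), Nr1i2 (0.84) and Hnf4a (0.86), and with median centring for Uros (0.40), Alad (0.09), Rxra (0.07), Nr1i2 (0.56) and Hnf4a (0.58), where the median of all genes was 0.58 and 0.31. The causes were not tested.

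Over all genes, 4383 passed for CCl4 against healthy liver, 10861 without rescaling, 7191 with median centring and 2483 with Y-linked signal as a block. For FSP1 ablated against healthy liver 2277 became 10543 (99.4% higher), 6487 (94.1% higher) and 166 in those settings and 3991 with array weights, and for aSMA ablated against healthy liver 2919 became 9752 (99.5% higher), 6851 (92.4% higher), 1358 and 4761. Leaving out 1 array gave 1358 to 1467 for FSP1 ablated against healthy liver without healthy array 3 or 4 or FSP1 ablated array 1 or 2, 1597 for aSMA ablated against healthy liver without aSMA ablated array 2, and 1105 in place of 1667 for FSP1 ablated against CCl4 liver without FSP1 ablated array 2. The 1 gene for aSMA ablated against CCl4 liver became 1658 with array weights, 1225 with CCl4 arrays 1 to 3, 217 with Y-linked signal as a block, 186 without CCl4 array 4, 22 with the replicate block and 0 to 11 in the remaining settings that use all arrays. For FSP1 against aSMA ablated liver 582 became 2525 with array weights, 206 and 365 without FSP1 ablated array 2 and 1, 96 to 322 without an aSMA ablated array, and its share of higher genes, 42.1%, was 28.3% without rescaling and 23.6% with median centring. With the replicate block, where the numbers were found not to pair the arrays, Cyp2c37 and Cyp2c50 differed by -0.98 (adjusted p = 0.126) and -1.08 (adjusted p = 0.105) between CCl4 and healthy liver and no longer passed, and Cyp2c39 by 1.88 (adjusted p = 6.91e-05), and it changed no other call of a member. Over 774 values of members under the alternatives, the side of the threshold was kept with no turn of a passing value in 686, lost in 70 and gained in 15, and a passing value turned in 3. The sign differed in 30 values in all, 27 of them with neither value passing. Among these are Cyp2c39 between CCl4 and healthy liver with CCl4 arrays 4 to 6 (-0.58), Cyp2c37 and Cyp2c50 between FSP1 ablated and CCl4 liver without FSP1 ablated array 2 (0.25 and 0.14), and Cyp2c70 between CCl4 and healthy liver with the Y-linked block (-0.40). The Cyp2c38 and Cyp2c40 probes did not pass the filter on background and were not tested.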
